A study of Rattus norvegicus with 12 samples.

Results

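Acute hypobaric hypoxia alone was compared with normoxic control in the cells of rat bronchoalveolar lavage fluid (BALF), using the 3 arrays of the HPO group and the 3 of the CTL group out of 12 in all. HPO rats spent 6 h in a decompression chamber at 405.35 mmHg, which corresponds to 5000 m or 11.2% O2, and their specimens were collected under hypoxia. CTL rats stayed in normoxia and received saline through the tail vein, and no injection is described for HPO rats, so injection and hypoxia cannot be told apart here. All animals were male Sprague-Dawley rats of 8 weeks that had neither food nor water during the experiment and were anaesthetized with chloral hydrate. Each CTL and HPO array held total RNA pooled from 3 rats: rats 1, 3 and 4, rats 5, 6 and 7, and rats 8, 9 and 10 for the CTL pools, and rats 7, 8 and 9, rats 2, 4 and 11, and rats 3, 5 and 12 for the HPO pools. These are called CTL pools 1 to 3 and HPO pools 1 to 3. The rat numbers were taken as given within each group, which the labels do not state. The other 6 arrays came from rats given 0.5 mg/kg lipopolysaccharide (LPS), the bacterial endotoxin, in normoxia (LPS group, 3 arrays) or followed by the same chamber (COMB group, 3 arrays). The titles name only rats 2 and 3 for COMB pool 1 and rats 10 and 11 for COMB pool 2, although the methods describe 3 animals per pool. The spread between pools covers differences between these sets of rats, and differences between single rats were averaged by the pooling.

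When oxygen falls, hypoxia-inducible factors (HIF-1α, encoded by Hif1a, and HIF-2α, encoded by Epas1) are no longer marked for destruction by prolyl hydroxylases, and with their partner they bind the letters ACGTG or GCGTG near their target genes. The usual targets are glycolytic enzymes, glucose transporters, angiogenic factors and the prolyl hydroxylases themselves. HIF-1α is controlled mainly as a protein, so its mRNA need not move. Lavage of a healthy lung yields mostly alveolar macrophages, with a minority of lymphocytes, granulocytes and cells shed from the airway lining.

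Macrophage genes were bright in CTL and HPO, shown here by 2 genes chosen after their values were seen. The mannose receptor gene Mrc1 had an intensity of 6156 ± 218 in CTL and 6740 ± 243 in HPO (SD, n = 3 pools each), and the lysosomal marker Cd68 had 3882 ± 321 and 4101 ± 292. Of 22 alveolar macrophage markers, 16 were tested, and their median log2 fold change was -0.05, with 8 values above 0 and 8 below. Array medians lay between 32.7 and 35.6 over all 12 arrays. Among the 6 arrays, 2 pools stood apart. HPO pool 3 (rats 3, 5 and 12) was the highest for 36.8% of all genes, and its Euclidean distance over the log2 values of all tested probe sets was 54.3 to 69.4 from the other 5, where the closest pair was at 36.1. CTL pool 2 (rats 5, 6 and 7) had the highest value of the 6 arrays for 22 of 32 cytokine and chemokine genes, for 23 of 29 interferon-stimulated genes, for 7 of 10 neutrophil markers and for 18 of 19 T and NK cell markers, while over all genes it was highest for 12.3%. The medians of these lists, and the values of their members that it moved most, are therefore given with and without it. As the samples are mixed cells, a change in the number of cells of a type and a change of RNA per cell cannot be told apart in any result that follows.

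The response to hypoxia alone was small. Of 25692 probe sets tested, 9 passed an adjusted p of 0.05 in HPO against CTL (limma with Benjamini-Hochberg adjustment over all probe sets), which is 0.035%, and all 9 were higher in HPO. None was lower by that criterion, by an unadjusted limma p under 0.05 1469 probe sets (5.72%) were higher and 1025 (3.99%) lower, and the methods' t-test gave 0 after the same adjustment. Among 12853 genes, each represented by its brightest probe set, 4 were called (0.0311%), 98 were past 2-fold higher (0.762%) and 26 past 2-fold lower (0.202%). All 3 HPO pools lay above all 3 CTL pools for 1053 genes (8.19%) and below them for 874 (6.8%). Both criteria together, 2-fold and no overlap, held for 85 genes higher in HPO (0.661%) and for 10 lower (0.0778%). The median 95% interval of a gene spanned ± 0.28 on the log2 scale, or 1.21-fold, and for 12096 genes (94.1%) the whole interval lay within 2-fold of no difference. LPS alone gave 525 called probe sets against CTL (2.04%) and COMB gave 4895 (19.1%).

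The genes that rose were Fmo2, Sult1a1, Wfdc2, Farp1 and, by 2 of its 3 probe sets, Cirbp. Fmo2 encodes a flavin-containing monooxygenase of the lung that oxidizes drugs and other foreign compounds. Its intensities were 38.2, 41.8 and 46.7 in the CTL pools and 218, 212 and 205 in the HPO pools. The groups were far apart and each was tight, and the gap between them was the widest of all genes (2.11 log2). The log2 fold change was 2.30 ± 0.26 (SE), or 4.93-fold, with an limma adjusted p of 0.0289. A second Fmo2 probe set had a log2 fold change of 1.11 (limma adjusted p = 0.104) and another 0.25, so the probe sets differed in size but not in direction. Sult1a1, a sulfotransferase that conjugates phenols, was at 41.6, 46.2 and 42.6 in CTL and at 122, 125 and 147 in HPO. Again no pools overlapped, and the log2 fold change was 1.57 ± 0.21 with an limma adjusted p of 0.0336.

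Wfdc2, a secreted protease-inhibitor-like protein made by airway epithelium, was at 399, 435 and 387 in CTL and at 1144, 992 and 1197 in HPO. It rose by 1.44 ± 0.21 on the log2 scale (SE, limma adjusted p = 0.0477), and its groups did not overlap. Farp1 was at 23.7, 21.8 and 19.2 in CTL and at 34.1, 39.0 and 39.3 in HPO, a log2 fold change of 0.77 ± 0.11 (limma adjusted p = 0.0408). Another Farp1 probe set had -0.12, so that rise rests on 1 probe set. Cirbp, the cold-inducible RNA-binding protein, was called by its probe sets with log2 fold changes of 0.97 and 1.21 (limma adjusted p = 0.0336 for each). Its brightest probe set was at 175, 149 and 178 in CTL and at 275, 428 and 436 in HPO, 1.15 ± 0.23 on the log2 scale with an limma adjusted p of 0.104. All 3 Cirbp probe sets thus had higher values in every HPO pool than in any CTL pool. The remaining called probe sets, 3 in number, name no gene. Each of these calls was fragile. When any 1 of the 6 pools was left out, between 0 and 12 probe sets were called, and of the 9 none was called without CTL pools 1, 2 or 3 or HPO pools 2 or 3, and 4 were called without HPO pool 1.

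**Figure D1:**
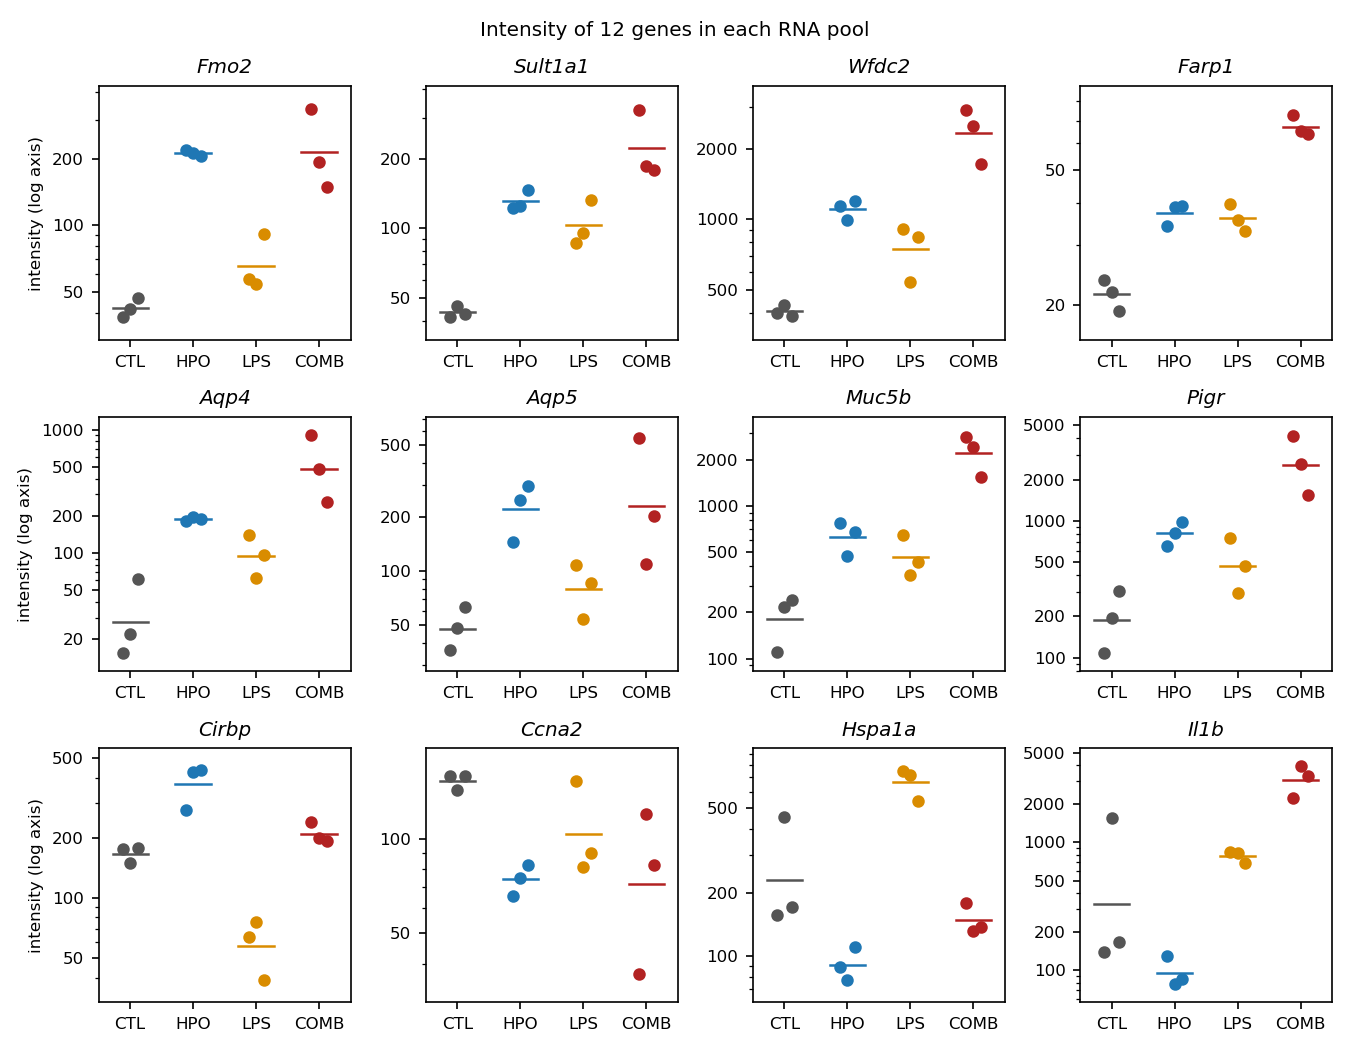
Intensity (deposited linear units, log axis) of 12 genes in each RNA pool of the CTL, HPO, LPS and COMB groups. Points are pools, and the bar is the group mean taken on the log2(intensity + 1) scale. For Fmo2, Sult1a1 and Wfdc2 the HPO pools sit together and above all CTL pools, whereas the CTL mean of Il1b is raised by 1 pool at 1553.

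Upstream sequence is shown for 3 genes because hypoxia acts in part through the letters ACGTG and GCGTG: Fmo2 as the called gene with the largest difference, Cirbp as a called gene that holds 1 copy, and Ankrd37 as the HIF target with the largest difference. Each run gives the 250 bases before the RefSeq transcription start in GRCr8, read 5′ to 3′ on the gene's strand, with ACGTG or GCGTG of either strand in capitals. They lie at chr13:77777535-77777784 (minus strand) for Fmo2, chr7:10189476-10189725 (minus strand) for Cirbp and chr16:53001257-53001506 (plus strand) for Ankrd37.
Fmo2: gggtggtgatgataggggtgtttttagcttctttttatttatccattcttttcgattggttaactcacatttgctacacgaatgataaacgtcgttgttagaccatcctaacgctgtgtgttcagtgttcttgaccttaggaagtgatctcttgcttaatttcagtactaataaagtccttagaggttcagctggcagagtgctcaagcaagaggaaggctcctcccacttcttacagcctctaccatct
Cirbp: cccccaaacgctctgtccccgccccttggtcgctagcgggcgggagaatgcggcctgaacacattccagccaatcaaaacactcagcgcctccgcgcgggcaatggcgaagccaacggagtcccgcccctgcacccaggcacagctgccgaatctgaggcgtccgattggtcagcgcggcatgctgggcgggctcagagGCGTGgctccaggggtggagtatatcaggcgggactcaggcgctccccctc
Ankrd37: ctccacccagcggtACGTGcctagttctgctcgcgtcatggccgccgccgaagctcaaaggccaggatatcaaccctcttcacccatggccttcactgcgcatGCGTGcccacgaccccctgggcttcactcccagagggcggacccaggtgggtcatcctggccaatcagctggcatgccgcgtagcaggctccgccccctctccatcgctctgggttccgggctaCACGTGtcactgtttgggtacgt
The Fmo2 window held no match, the Cirbp window held 1 to GCGTG, and the Ankrd37 window held 3 to ACGTG, a pair of which overlap on opposite strands, and 1 to GCGTG. The windows of Sult1a1 and Wfdc2 held none and that of Farp1 held 1. Of 10627 tested genes with an entry, 53.7% had at least 1 match. The share was 62.1% for 29 HIF targets, 57.1% for 14 glycolysis genes and 35.5% for 62 of the 85 genes that were past 2-fold higher without overlap. The antioxidant response letters TGACNNNGC were found on either strand in 12.5% of the tested genes and in 16.1% of those 62. These shares describe letters in a window and no binding was measured.

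Ranked by size among genes whose pools did not overlap, those higher in HPO were led by genes of epithelial and secretory cells. Aqp4, a water channel, was at 15.4, 22.0 and 62.0 in CTL and at 183, 197 and 190 in HPO, the highest log2 fold change of any gene (2.73 ± 0.50, limma adjusted p = 0.0892). The HPO pools were close together while CTL pool 3 was well above the other CTL pools, and 2 further Aqp4 probe sets had 0.91 and -0.09. Aqp5, a water channel of alveolar and gland epithelium, was at 36.2, 48.1 and 63.0 against 146, 249 and 296 (2.18 ± 0.48, limma adjusted p = 0.136). Behind these came the membrane mucin Muc4 (2.12), the polymeric immunoglobulin receptor Pigr (2.10), Tc2n (1.91), mesothelin Msln (1.82), complement component C3 (1.80), Gdpd2 (1.80), the gel-forming mucin Muc5b (1.79), Selenbp1 (1.74), the zinc transporter Slc39a4 (1.73), the basal cell keratin Krt15 (1.73), the secretory-pathway disulfide isomerase Agr2 (1.70) and the acidic chitinase Chia (1.66), all log2 fold changes with limma adjusted p from 0.0613 to 0.335. Genes whose pools overlapped were left out of this ranking. That the lowest HPO pool was above the highest CTL pool in each gene listed was thus a condition of the choice. The bile acid and organic anion transporter Slco1a5 (1.66) joined Fmo2, Tc2n, Selenbp1, Aqp4, Gdpd2, Msln, Sult1a1, Aqp5 and Agr2 among the 10 genes with the widest gaps, which ran from 1.19 to 2.11 log2.

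Among the gene lists, which were chosen with earlier results of these data known, the airway secretory markers had the largest median. Of 29 listed, 24 were tested and all 24 were above the filter on every array. 1 of them was called (Wfdc2), and 18 had an unadjusted limma p under 0.05 and were higher (4.67% of all genes). Past 2-fold higher were 15 (0.762% of all genes), and 17 were higher without overlap (8.19% of all genes). Of the 24 values 18 were above 0 and 6 below, the lowest at -0.36, so none was past 2-fold lower. The median log2 fold change was 1.25, against -0.00 over all genes. The list's mean log2 level was 6.81, 6.97 and 6.83 in the CTL pools and 7.85, 7.72 and 8.07 in the HPO pools. The summed intensity of the members ran from 9819 to 13510 in CTL and from 23490 to 24160 in HPO. The levels of the groups were separated by more than the range within either. Leaving out any 1 pool gave a median between 1.07 and 1.37 and from 12 to 16 members past 2-fold.

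Among its members, Muc5b was at 111, 219 and 242 in CTL and at 772, 468 and 677 in HPO (1.79 ± 0.33, limma adjusted p = 0.0925). Pigr, which carries immunoglobulin A across the epithelium, was at 109, 196 and 307 against 658, 820 and 974 (2.10 ± 0.43, limma adjusted p = 0.107). In both genes every HPO pool was brighter than the brightest CTL pool. HPO pool 3 was the highest of the 6 arrays for 62.5% of the list, and without it the list median was 1.10. Scgb1a1, the main secretory product of club cells and a defining marker of the list, was already bright in CTL at 5499, 6353 and 4107 and was at 8093, 9407 and 7078 in HPO (0.64 ± 0.15). Markers of other epithelia were smaller in difference. Over all genes 8.19% were higher without overlap. For basal cells 4 of 9 members were higher without overlap (median 0.18), led by Krt15 and the water channel Aqp3 (1.34). For alveolar epithelium it was 4 of 18 (median 0.10), led by Aqp5 and the collectin Sftpd, which was at 163, 195 and 117 in CTL and at 348, 380 and 379 in HPO (1.25 ± 0.24). For tight and adherens junctions it was 9 of 23 (median 0.28), led by Cldn7 (1.36) and Epcam (1.27). For motile cilia, the beating apparatus of ciliated cells, it was 9 of 20, no gene was past 2-fold and the median was 0.40, with 19 of 20 values above 0. Only 17 of these cilium genes were above the filter on all 12 arrays. Of those 17, 6 were higher without overlap and the median was 0.30. Foxj1, the regulator that switches on ciliary genes, was at 67.0, 77.7 and 89.9 in CTL and at 135, 119 and 157 in HPO (0.80 ± 0.19, limma adjusted p = 0.168). Of the 85 genes past 2-fold higher without overlap, 21 belonged to at least 1 of these 5 lists, and 15 of those to the secretory list. Among all 12853 genes, 91 were in at least 1 of the 5 lists and 24 in the secretory list. The rest of the 85 genes were in none of the 5.

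**Figure D2:**
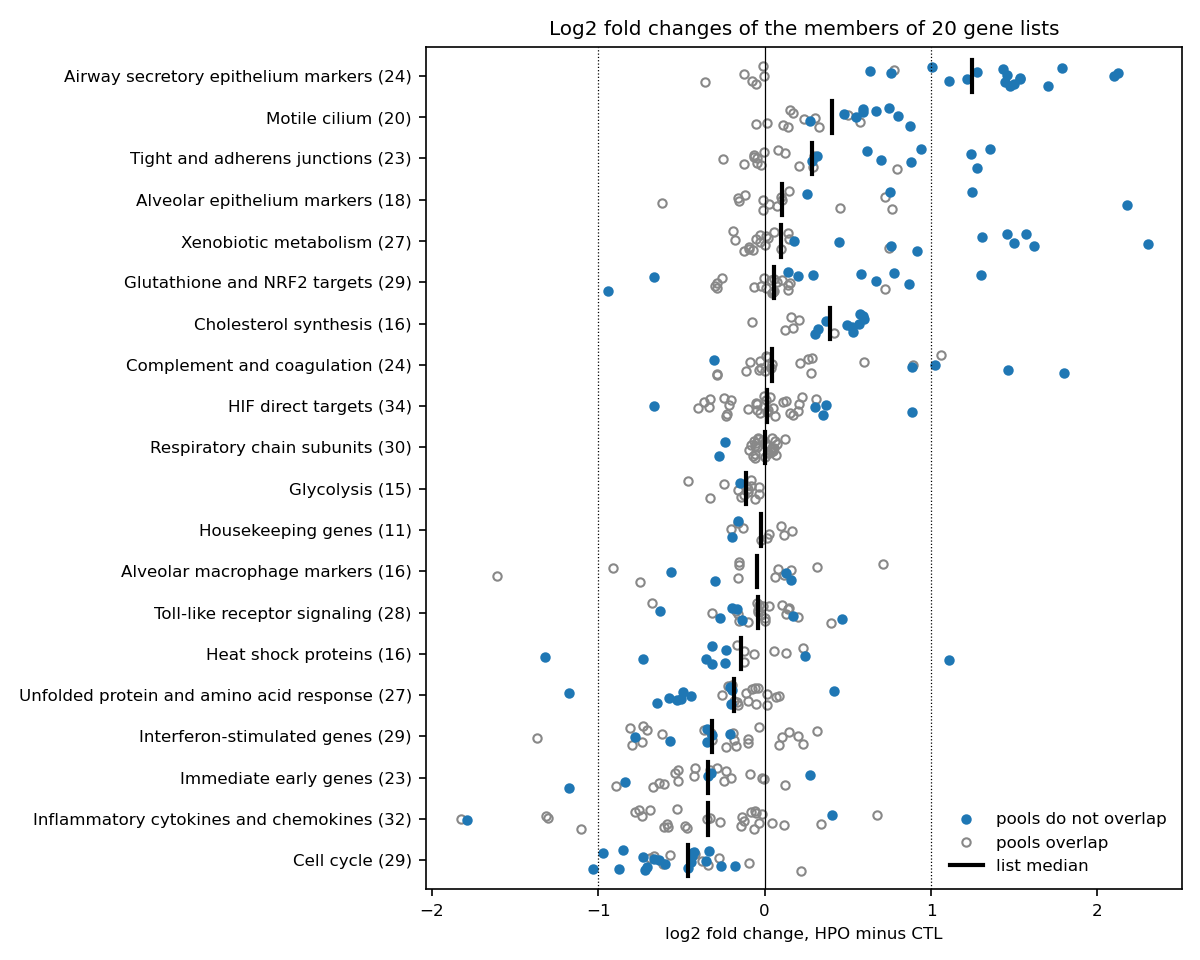
Log2 fold change, HPO minus CTL, of every tested member of 20 gene lists (number of members in brackets). Filled points have pools that do not overlap, open points have pools that do, the bar is the list median, and dotted lines mark 2-fold. Airway secretory markers spread to the right with a median of 1.25, cell cycle genes lie to the left with a median of -0.46, and HIF targets, respiratory chain and glycolysis genes stay close to 0.

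Enzymes of xenobiotic metabolism held 2 of the called genes, Fmo2 and Sult1a1. Of 27 tested, 6 were past 2-fold higher (0.762% of all genes) and 10 were higher without overlap (8.19% of all genes). The median was 0.10, so most members were near 0. Cyp2f4, a cytochrome P450 of club cells, was at 236, 132 and 159 in CTL and at 405, 420 and 667 in HPO (1.50 ± 0.44, limma adjusted p = 0.266), and Cyp3a9 was at 31.6, 33.5 and 43.4 against 61.5, 104 and 220 (1.62 ± 0.37). Neither overlapped, though in each HPO pool 3 was the brightest. The epithelial marker levels given above moved in the same direction in the same pools, and their part in these values was not tested. Of 29 glutathione and NRF2 targets, 8 were higher and 2 lower without overlap (median 0.06), beside 8.19% and 6.8% of all genes. Gpx2, a glutathione peroxidase of epithelia, had 1.30 ± 0.24 (limma adjusted p = 0.0937), whereas Srxn1, the sulfiredoxin that repairs peroxiredoxins, had -0.94, a value that became -0.24 without CTL pool 2. In the complement and coagulation list 4 of 24 were past 2-fold higher (0.762% of all genes). They were led by C3 and by F3, the tissue factor that starts clotting (1.46 ± 0.29, limma adjusted p = 0.104). Without overlap 4 were higher and 1 lower (8.19% and 6.8% of all genes), and the median was 0.04. Leaving out any 1 pool gave from 2 to 6 members past 2-fold higher.

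Genes of cholesterol synthesis were slightly higher in HPO by their values, 15 of 16 above 0, and none was called. Of the 16 tested, 11 had an unadjusted limma p under 0.05 and were higher (4.67% of all genes). Without overlap 10 were higher (8.19% of all genes), none was past 2-fold, and the median log2 fold change was 0.39. Insig1, the sterol-sensing brake on the pathway and itself a target of it, was at 539, 484 and 486 in CTL and at 800, 746 and 740 in HPO (0.60 ± 0.12, limma adjusted p = 0.104). Fdps, which makes farnesyl diphosphate, was at 631, 512 and 518 against 927, 820 and 758 (0.59 ± 0.15). Msmo1 (0.57) and Hsd17b7 (0.56) followed. For each of the 4 the pools did not overlap, and the list median stayed between 0.35 and 0.45 when any 1 pool was left out.

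Cell cycle genes had lower values in HPO. Of 29 tested, 19 had an unadjusted limma p under 0.05 and were lower (4.12% of all genes were), 19 were lower without overlap (6.8% of all genes), 1 was past 2-fold lower, and 28 of 29 values were below 0, with a median of -0.46. None reached an limma adjusted p of 0.05. The list's mean log2 level was 7.91, 7.58 and 7.60 in CTL and 7.09, 7.03 and 7.43 in HPO, so the groups did not overlap, with CTL pool 1 the highest and HPO pool 3 the nearest to CTL. Ccna2, the cyclin of S and G2 phase, was at 158, 143 and 158 in CTL and at 66.0, 74.8 and 82.6 in HPO (-1.03 ± 0.34, limma adjusted p = 0.315), the widest gap of any gene lower in HPO. Its limma adjusted p was 0.018 when only the CTL and HPO arrays were fitted. Outside the list but known from dividing cells, the chromatin remodeller Hells was at 125, 114 and 116 against 70.1, 70.7 and 73.7 (-0.72 ± 0.11, limma adjusted p = 0.0613). In both genes the groups were separated by more than the spread within HPO. The mitotic checkpoint kinase Bub1 (-0.97), DNA topoisomerase Top2a (-0.88), the proliferation antigen Mki67 (-0.85) and, again outside the list, the retinoblastoma-family member Rbl1 (-0.57), the methylation maintenance factor Uhrf1 (-0.99) and the spindle protein Ska1 (-0.91) also had all HPO pools below all CTL pools. Apart from Mki67, these genes were named at least in part because their pools did not overlap. Without CTL pool 1, the number of cell cycle genes with an unadjusted limma p under 0.05 and lower dropped from 19 to 7, without HPO pool 1 to 10 and without HPO pool 2 to 9, and the median stayed between -0.60 and -0.42 in all 6 cases.

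Chaperones also had lower values, in the cytosol and in the endoplasmic reticulum. Of 16 heat shock genes 7 were lower and 2 higher without overlap (median -0.14). Of 27 genes of the unfolded protein and amino acid response 10 were lower and 1 higher (median -0.19). Over all genes 6.8% were lower and 8.19% higher without overlap. Hspa1a, the inducible HSP70, was at 156, 454 and 172 in CTL and at 89.1, 77.7 and 111 in HPO. All HPO pools were lower, and CTL pool 2 was well above the other CTL pools. The log2 fold change was -1.32 ± 0.33 (limma adjusted p = 0.184), and -0.83 without that pool. Hsph1, its nucleotide exchange factor, was at 481, 521 and 520 against 328, 252 and 342 (-0.73 ± 0.16, limma adjusted p = 0.129), and Dnaja1, a co-chaperone, had -0.35. Pdia4, a disulfide isomerase of the endoplasmic reticulum, was at 337, 304 and 299 against 209, 191 and 198 (-0.65 ± 0.11, limma adjusted p = 0.0879), and Hspa5, the HSP70 of that compartment, was at 1003, 1173 and 1082 against 843, 696 and 724 (-0.53 ± 0.10, limma adjusted p = 0.104). Ppp1r15a, which restarts translation after stress, had -0.58. The exception by size was Hspb1, the small heat shock protein, at 76.4, 115 and 60.1 in CTL and 144, 180 and 207 in HPO (1.11 ± 0.44). Of 5 cold-inducible RNA-binding proteins, Cirbp, Rbm3 (0.43) and the splicing factor Srsf5 (0.41) were higher and Sfpq (-0.35) lower without overlap.

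The genes usually tied to hypoxia stayed near 0. Of 34 HIF target genes, none was called, none was past 2-fold, and the median log2 fold change was 0.01. Without overlap 4 were higher and 1 lower, 14.7% in either direction, where 15% of all genes were. By unadjusted limma p under 0.05, 4 were higher and 3 lower, beside 4.67% and 4.12% of all genes. For 31 of the 34 the 95% interval lay wholly within 2-fold. Ankrd37, a small ankyrin-repeat gene known as a HIF-1 target, had the highest value: 16.8, 23.9 and 15.7 in CTL and 32.4, 27.1 and 48.4 in HPO (0.88 ± 0.23, limma adjusted p = 0.205). Its pools did not overlap, by 0.18 log2. Cited2, which restrains HIF-1α, had 0.37 (limma adjusted p = 0.456). At the other end, Hmox1, which degrades haem, was at 1420, 1682 and 1573 against 1022, 1088 and 843 (-0.67 ± 0.11, limma adjusted p = 0.0673), again without overlap. Vegfa, the endothelial growth factor, was at 16.6, 78.9 and 12.1 against 22.6, 18.6 and 16.3 (-0.40 ± 0.48), and its sign turned without CTL pool 2 (0.40).

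All 15 glycolysis genes tested had values below 0, with a median of -0.11, and every interval lay within 2-fold. By unadjusted limma p under 0.05 none of the 15 passed. The lowest was the enolase Eno2 (-0.46 ± 0.24, and -0.19 without CTL pool 2), followed by the lactate exporter Slc16a3 (-0.33 ± 0.16). Lactate dehydrogenase Ldha had -0.10 (95% interval -0.33 to 0.13) and the glucose transporter Slc2a1 -0.22 (-0.54 to 0.10). The 30 respiratory chain genes had a median of -0.00, with all intervals within 2-fold. Hif1a was at 1133, 1786 and 1232 in CTL and at 1157, 1004 and 1039 in HPO. The groups overlapped, and the log2 fold change was -0.35 (95% interval -0.67 to -0.03, limma adjusted p = 0.459), or -0.15 without CTL pool 2, the highest CTL pool. Epas1 was at 268, 297 and 243 against 386, 374 and 436, without overlap (0.57 ± 0.21, limma adjusted p = 0.384).

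**Figure D3:**
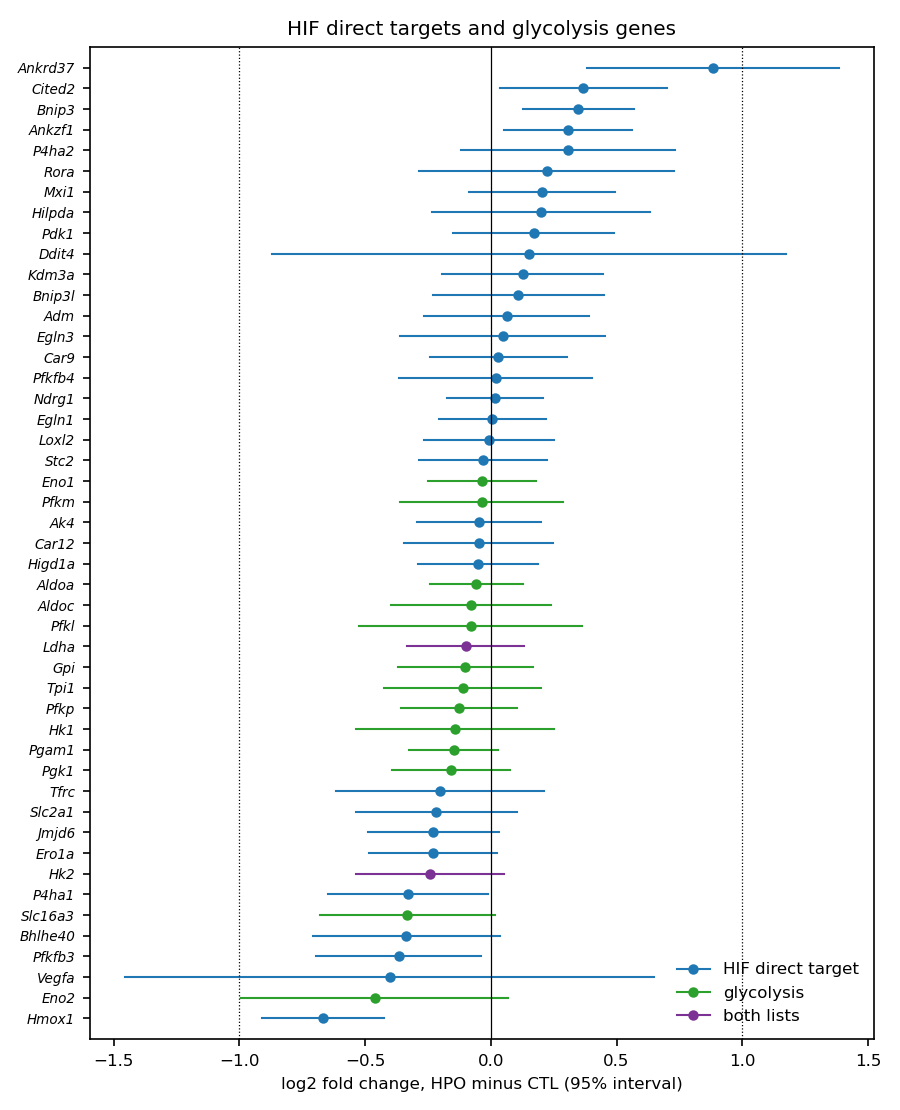
Log2 fold change, HPO minus CTL, with its 95% interval for 47 HIF target and glycolysis genes, sorted by value (2 genes are in both lists). Dotted lines mark 2-fold. Ankrd37 at 0.88 and Hmox1 at -0.67 are the ends of the range. The interval of Ankrd37 and the wide intervals of Vegfa and Ddit4 cross a 2-fold line.

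Inflammatory genes gave no call. Of 32 cytokine and chemokine genes 5 were past 2-fold lower (0.202% of all genes) and none of these 5 was called. Without overlap 1 was higher and 1 lower (8.19% and 6.8% of all genes), and the median was -0.34. Without CTL pool 2 the median was -0.05, none was past 2-fold lower and 2 were past 2-fold higher. Cxcl2, a neutrophil attractant, was at 61.0, 2016 and 118 in CTL and at 52.3, 53.9 and 113 in HPO, a log2 fold change of -1.83 with all arrays and -0.31 without that pool. Il1b was at 138, 1553 and 167 against 129, 77.9 and 85.0. Every HPO pool was below every CTL pool, but only by 0.09 log2, and the log2 fold change was -1.79 ± 0.68 (limma adjusted p = 0.404), or -0.67 without CTL pool 2. Tnf was at 46.1, 68.5 and 59.8 against 52.0, 29.0 and 45.5 (-0.48 ± 0.25, limma adjusted p = 0.614), or -0.35 without CTL pool 2, and Il6 was below the filter on low values. The prostaglandin synthase Ptgs2 (-1.30) and the monocyte attractant Ccl2 (-1.31) overlapped between groups, and without CTL pool 2 the value of Ptgs2 was 0.08 and that of Ccl2 -0.43.

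Of the genes followed by the study beside these cytokines, Lbp, the LPS-binding protein, was at 18.8, 16.2 and 12.0 against 19.1, 22.4 and 23.6 (0.46 ± 0.24). Cd14, its co-receptor, had 0.40 ± 0.26, Ccl3 -0.35 ± 0.38 and the NF-κB inhibitor Nfkbia 0.20 ± 0.26, and these 3 overlapped between groups. Without CTL pool 2 the value of Cd14 was 0.70 and its pools no longer overlapped, that of Ccl3 was 0.07 and that of Nfkbia 0.31. Tlr4, the LPS receptor, was at 413, 410 and 443 in CTL and at 391, 308 and 353 in HPO. All HPO pools were below all CTL pools, by 0.07 log2. The difference was -0.27 ± 0.11 (limma adjusted p = 0.468). By a two-sided exact permutation test Tlr4 had p = 0.1, the smallest that 3 pools against 3 allow, and 0.267 after adjustment over the 8 study genes tested, and Hif1a had p = 0.2 (exact, adjusted 0.32). The 28 Toll-like receptor pathway genes had a median of -0.04, and 2 were higher and 5 lower without overlap, beside 8.19% and 6.8% of all genes.

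Interferon-stimulated genes had a median of -0.31 with all pools and 0.10 without CTL pool 2. Of 29 tested, 6 were lower and 0 higher without overlap, beside 6.8% and 8.19% of all genes. Without CTL pool 2, where fewer pools overlap by construction, 6 were lower and 4 higher. Ifit3 was at 47.2, 2432 and 52.1 in CTL against 98.1, 40.0 and 88.1 in HPO. Immediate early genes had a median of -0.34, or -0.21 without that pool, and Atf3, a stress-induced repressor, was at 216, 541 and 205 against 188, 98.8 and 110 (-1.18 ± 0.32, limma adjusted p = 0.222), or -0.72 without that pool. Neutrophil markers had a median of -0.39, or 0.00 without that pool. Csf3r, the receptor for granulocyte colony-stimulating factor, was at 136, 202 and 113 against 40.0, 33.3 and 80.3 (-1.60 ± 0.54, limma adjusted p = 0.326), and -1.37 without CTL pool 2. S100a9 was at 20.6, 2011 and 60.2 against 97.0, 31.5 and 75.9, and its sign turned without that pool. Gzma, a granzyme of cytotoxic lymphocytes, was at 10.9, 381 and 48.0 against 37.9, 18.9 and 12.4 (-1.47, or -0.15 without CTL pool 2). The T and NK cell markers as a list had a median of -0.12, or 0.25 without CTL pool 2. Without CTL pool 1, the lowest of the CTL pools in this list, the median was -0.63 and 12 of 19 markers were lower without overlap, so it moved in either direction with a single pool.

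**Figure D4:**
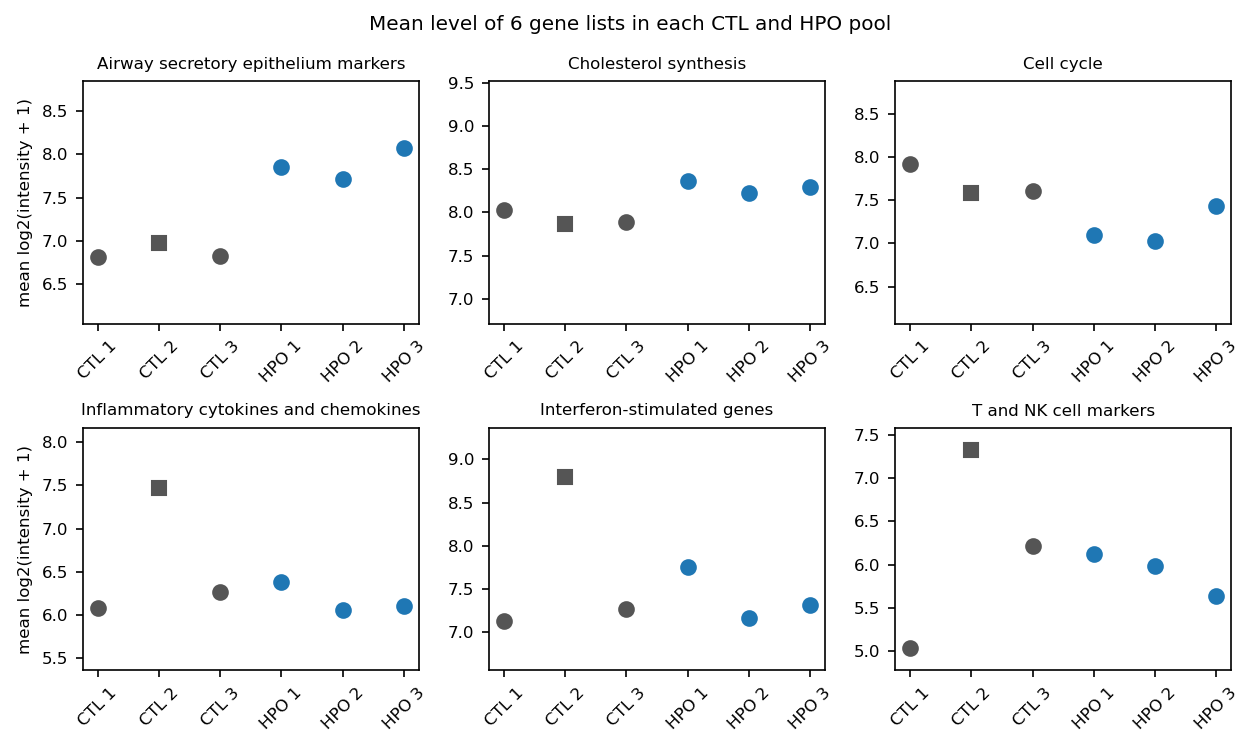
Mean log2(intensity + 1) over the tested members of 6 gene lists in each CTL (grey) and HPO (blue) pool, with CTL pool 2 as a square. All panels span a range of the same width. In the upper panels the HPO pools lie apart from all CTL pools, and in the lower panels CTL pool 2 lies above the other 5 pools.

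Other genes lower in HPO by size were Tagap, an activation-induced GTPase-activating protein of lymphocytes (-1.69, and -0.67 without CTL pool 2), the lipolysis inhibitor G0s2 (-1.29, and -0.77 without it), the apoptosis inhibitor Birc3 (-1.12, and -0.37 without it), the lymphocyte activation marker Cd69 (-0.95) and the class I gene RT1-A (-1.02), whose probes may also read related class I genes. Tppp, a tubulin-binding protein, did not depend on that pool. It was at 517, 327 and 499 in CTL and at 234, 140 and 135 in HPO, and all HPO pools were lower (-1.41 ± 0.22, limma adjusted p = 0.0613). Among macrophage markers the largest value was that of Spp1, osteopontin, at 385, 411 and 451 against 414, 94.6 and 62.8 (-1.61 ± 0.64), and the lectin Siglec5 had -0.91. In both genes the groups overlapped, because 1 HPO pool kept a CTL level for Spp1 and CTL pool 2 was low for Siglec5. Circadian genes had a median of 0.09 over 17, with the output factor Hlf at 38.9, 48.3 and 35.1 against 72.8, 66.1 and 103 (0.95 ± 0.35, limma adjusted p = 0.38). The 11 housekeeping genes had a median of -0.02.

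The same hypoxia given after LPS could be set beside these results as COMB minus LPS, whose group means come from other arrays. All 12 arrays shared 1 variance estimate, the filter and the choice of probe set, so the calls of these contrasts are not independent. The 85 genes that were past 2-fold higher without overlap all had positive values there. Of them, 63 (74.1%) were called higher in COMB than in LPS (limma, adjusted p under 0.05), where 8.64% of all genes were, and their median log2 fold change was 1.69. Fmo2 (1.69 ± 0.26, limma adjusted p = 0.00216), Sult1a1 (1.10 ± 0.21, 0.00727), Wfdc2 (1.63 ± 0.21, 0.00104), Farp1 (0.88 ± 0.11, 9.07e-04) and Cirbp (1.86 ± 0.23, 9.07e-04) all rose there. Of the 10 genes that were past 2-fold lower without overlap, 1 was called lower there (Hspa1a, -2.16) and 1 higher (Birc3, 2.03), and their median was 0.69. Over all 12853 genes the log2 fold changes of the pair of contrasts had a Pearson r of 0.37 and a Spearman rho of 0.38, a description over genes, which are not independent.

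**Figure D5:**
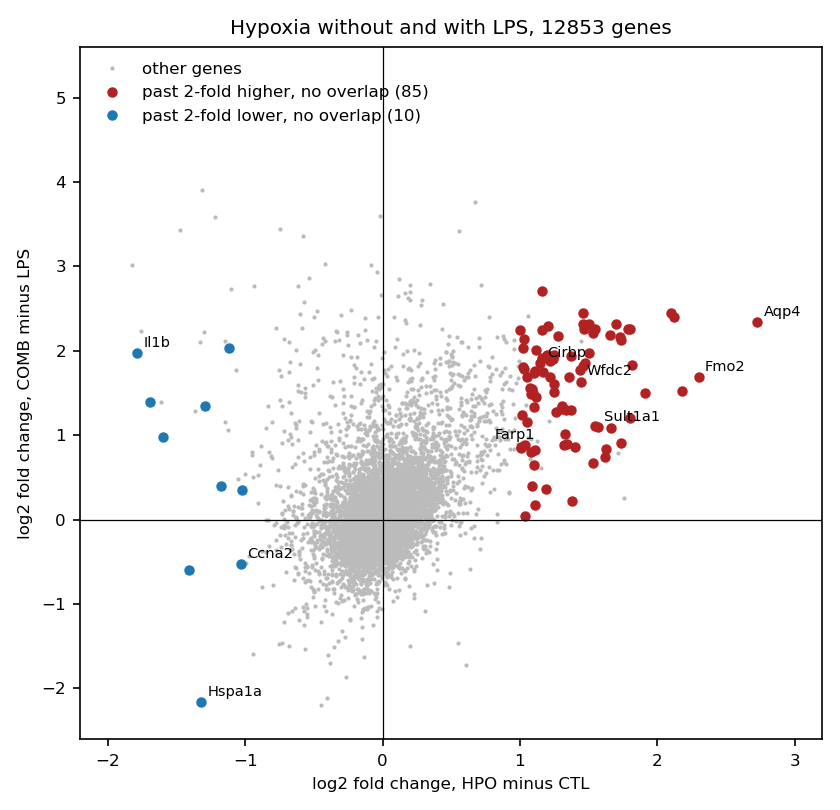
Log2 fold change of each of 12853 genes in HPO minus CTL (x axis) and in COMB minus LPS (y axis), which use different arrays. Red points are the 85 genes past 2-fold higher in HPO without overlap and blue points the 10 lower ones. All red points lie above 0 on the y axis, while 7 of the 10 blue points do.

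The lists are given here by their values in COMB against LPS, and no test compared a list between the backgrounds. Airway secretory markers were called higher in COMB than in LPS for 18 of 24 (median 1.73) and motile cilium genes for 17 of 20 (median 1.32). Not all 20 cilium genes were above the filter on every array. Over all genes 8.64% were called higher. Heat shock genes were called lower for 8 of 16 (median -0.40) and unfolded protein response genes for 7 of 27, where 5.04% of all genes were lower. Hsph1 fell by 1.47 there and Hspa5 by 0.73, each called. Cell cycle genes as a list had a median of -0.01, with 1 of 29 called and that one higher. Outside the list, Hells fell by 1.21 and Rbl1 by 1.09. Cholesterol genes had a median of 0.16 with 3 of 16 called. HIF targets had 0.17 with 4 of 34 (11.8%) higher, and glycolysis genes 0.22 with 4 of 15 (26.7%) higher. Cytokines and chemokines had 1.54 with 12 of 32 higher. For single genes the difference between the backgrounds was tested by the interaction, where 23 of all genes (0.179%) were called, and among the genes named only Tlr2 and Tnf passed.

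Set directly against the other single stimulus, HPO differed from LPS in 1064 genes (8.28%), of which 668 (5.2%) were higher and 396 (3.08%) lower in HPO. Chaperones and Cirbp were among them. Cirbp was at 275, 428 and 436 in HPO and at 64.0, 75.5 and 38.8 in LPS, 2.68 ± 0.23 higher (limma adjusted p = 9.01e-05). Hsph1 was lower in HPO than in LPS by a log2 difference of -2.54, Hspa1a of -2.84 and Hspa5 of -1.98, all called, so for these genes CTL lay between the treatments. Tlr4 was lower in HPO than in LPS (-0.58, limma adjusted p = 0.0118), as were Hif1a (-0.74, 0.0118), Cd14 (-1.50), Tlr2 (-1.22), Tnf (-1.25) and Il1b (-3.02). Selenbp1 (2.06), Krt15 (2.97), Cyp2f4 (2.64), Ltc4s, the leukotriene C4 synthase (1.22), and Fmo2 (1.68) were higher in HPO. For the airway secretory list, in contrast, 2 of 24 were called higher in HPO than in LPS and 1 lower, with Wfdc2 at 0.57 and Muc5b at 0.45, neither called.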

How the data were processed

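RNA of BALF cells, pooled by the authors, was hybridised to 12 Affymetrix Rat Genome 230 2.0 arrays (4 groups, 3 arrays each), and the pools were the replicates, so p-values measure the spread between pools. The authors deposited linear probe-set intensities whose array medians nearly coincide. Their normalization is not given in the sources used here, and array number, not depth, limits precision. Of 31099 probe sets, 57 controls were left out, and 25692 above the 20th percentile of their array in at least 3 of 12 arrays were tested. The deposited intensity was turned into log2(intensity + 1), which understates changes of dim genes. One limma model with 4 group means (R 4.3.3, limma 3.58.1, 8 residual degrees of freedom) gave each contrast, with Benjamini-Hochberg adjustment over all probe sets and a threshold of 0.05. A gene was represented by its brightest probe set among those naming 1 gene (20832 probe sets did, 436 named several and 9831 none). "No overlap" means that the lowest pool of one group exceeds the highest of the other. ± after a log2 fold change is the SE, and 95% intervals come from the same fit.

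The members and gene lists were chosen with earlier results of these data known. Named were the called genes, the 15 highest and 15 lowest without overlap, the 10 widest gaps in each direction, the genes the study names, and up to 4 genes of largest change per list. Mrc1, Cd68, Scgb1a1, Epcam, Foxj1, Mki67, Ldha, Slc2a1, Ddit4, Hspa5 and other genes outside this rule were chosen after their values were seen. Upstream sequences came from RefSeq (GRCr8). Alternatives were quantile normalization, median centring, pseudocounts of 0 and 16, other filters, only the CTL and HPO arrays, trend and robust variance, array weights, a block, the methods' t-test and leaving out each pool. Counts within the gene lists with 1 pool left out, and the interaction with 1 array left out, were chosen after seeing the data. Data of 25692 probe sets were simulated (10 runs), with known changes in a small random part of them. The HPO against CTL test recovered 41.6% of 1.5-fold, 90.9% of 2-fold and 99.1% of 4-fold changes there, with 4.73% of calls false. The simulated noise was independent and normal, without outlying pools, so these shares do not hold for the real arrays. In the real data 172 probe sets were past 2-fold and 9 were called.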

Additional observations from a re-analysis of the deposited data

Results flagged for a closer look

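The effect of hypoxia with LPS (COMB minus LPS) differed from that without it (HPO minus CTL) for 2 of the genes named above, by the interaction term of the limma model adjusted over all probe sets. For Tlr2, the receptor for bacterial lipoproteins, the CTL pools were at 104, 148 and 80.6 and the HPO pools at 72.1, 62.8 and 72.9, while the LPS pools were at 170, 164 and 153 and the COMB pools at 315, 369 and 354. Hypoxia thus went with a log2 difference of -0.63 alone (-0.40 without CTL pool 2) and of 1.08 after LPS, an interaction of 1.72 (limma adjusted p = 0.0261). When any 1 of the 12 arrays was left out it was 1.49 to 1.92, with limma adjusted p from 0.00928 to 0.0953.

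For Tnf the log2 difference was -0.48 without LPS and 1.80 with it, an interaction of 2.28 (limma adjusted p = 0.0396). With 1 array left out it was 2.04 to 2.53, with limma adjusted p from 0.0046 to 0.125. Neither gene passed the threshold in every case. Both missed it when any 1 LPS array, HPO pool 1, HPO pool 2 or COMB pool 2 was left out. Tnf also missed it without CTL pool 2 and without CTL pool 3. Over all genes, 23 were called in the interaction (0.179%).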

How the results depend on the processing

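The count of called probe sets depended most on the processing. It was 9 as reported, 5 with a pseudocount of 16, 14 with the filter at the array median, 14 with trend and robust variance, 63 with only the CTL and HPO arrays, 3576 with array weights (where HPO pool 1 received a weight of 6.38 and HPO pool 3 one of 0.226), 1 when 1 probe set per gene was tested and 0 by the methods' t-test after adjustment. It was 8 to 12 under quantile normalization, median centring, no pseudocount, no filter and a filter in all arrays. Leaving out 1 pool gave 0 to 12. A block by shared rat numbers, with only the CTL and HPO arrays, gave 109. The deviations of pools sharing numbers correlated at -0.162, -0.133 and 0.0541. These pairs shared only 1, 1 and 2 rat numbers, so the values cannot decide whether the numbers pair the pools. Of the 9, 8 were called with only the CTL and HPO arrays and 8 with the block. Past 2-fold were 172 probe sets, or 92 with a pseudocount of 16. Without overlap were 4009, or 5360 to 8891 with 1 pool left out, where fewer pools overlap by construction. The airway secretory median was 1.43 and the xenobiotic median 0.75 with the filter at the array median, which tests fewer dim members, and the airway median was 1.07 to 1.37 with 1 pool left out. Of 1764 values of single genes under the alternatives, 12 turned their sign, none of them for a called gene. Without CTL pool 2 these were Ccl3 (0.071), Vegfa (0.40), Ptgs2 (0.075), Ifit3 (0.49), S100a9 (0.78) and Gzmb (0.28), and with 1 of the other 5 pools left out their lowest values were -0.65, -0.91, -2.07, -2.34, -2.49 and -2.31. With array weights they were Ccl3 (0.026), Vegfa (0.40), Ifit3 (0.043), S100a9 (0.032), Gzmb (0.70) and Ldha (0.0098). The cause was not tested.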
